A study of Mus musculus with 2 samples.

Results

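Apolipoproteins are the protein parts of the particles that carry lipid through blood, and the liver makes most of them. The 10 genes described here, of 15348 in the deposited table, are the hepatic apolipoprotein genes Apoa1, Apoa2, Apoa4, Apoa5, Apob, Apoc1, Apoc3, Apoe and Apoh together with Mttp. They were taken by gene symbol, under a rule that uses no measured value but was drawn up with earlier results of these data known, and all 10 were found. Levels were compared between pooled liver RNA of NOG-TKm30 females given ortho-toluidine (OTD), an aromatic amine, and pooled liver RNA of untreated NOG-TKm30 females. All mice were 16 weeks old, of the immunodeficient NOG background, and carried the cDNA of the HSVtk mutant clone 30 (herpes simplex virus thymidine kinase) driven by enhancer and promoter of mouse transthyretin, a gene that hepatocytes express strongly. The OTD mice received 0.6% OTD for 1 week and 0.3% for 3 weeks, 4 weeks in total, while the Control mice received 0% throughout. RNA of 5 OTD mice and of 3 Control mice was mixed into 1 library each, so no spread between animals can be measured and no test between groups is possible. The strain label, titles and design text name NOG-TKm30 mice, whereas the treatment protocol names C57BL mice and both column names of the deposited table contain "Wild", a term left unexplained by the labels.

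In hepatocytes the microsomal triglyceride transfer protein, encoded by Mttp, loads lipid onto apolipoprotein B as it enters the endoplasmic reticulum, which starts a very low density lipoprotein (VLDL) particle. Apolipoprotein A-I is the main protein of high density lipoprotein (HDL), and the smaller exchangeable apolipoproteins move between particles and set how fast lipases and receptors clear them. Apolipoprotein E is the ligand by which liver receptors take up remnant particles.

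The OTD library held 14685193 reads and the Control library 13569189, recovered from the deposited normalized counts as explained in the processing notes. Levels are the deposited values, which behave as CPM, reads normalized to library size, over a library factor of 1.02 for OTD and 0.981 for Control. The ribosomal RNA precursor Rn45s took 2.66% of the OTD reads and 1.47% of the Control reads. All 6 hepatocyte markers were found at levels of 332 to 69694 in the OTD pool and 367 to 81661 in the Control pool. Their ratios ran from 0.853 (Alb) to 1.0996 (Cps1), with 4 of 6 below 1. Of 5 cholangiocyte markers, Krt7, Krt19 and Epcam stood at 2.004 or less in the OTD pool and 1.58 or less in the Control pool, with ratios above 1. The other two, Spp1 (24.0 in OTD, 25.5 in Control) and Sox9 (14.4 in OTD, 17.5 in Control), had ratios of 0.941 and 0.824. Of 5 enterocyte markers 2 were in the table.

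Promoter stretches of 3 members are shown, 2 with a TATAAA and 1 without, together with the stretch of Apob whose messenger RNA is known to be edited. Promoters run from 250 bases before to 50 after the RefSeq transcript start (RefSeq on GRCm38.p6), and capitals there mark TATAAA. Apoe is shown because it had the lowest ratio, and Apob and Apoa5 because they had low ratios and hold the motif. The Apob stretch comes from the GENCODE M21 transcript on GRCm38, and capitals mark the glutamine codon CAA and the start of the mooring sequence that the editing enzyme APOBEC1 needs.
Apoe promoter, chr7:19699139-19699438, minus strand: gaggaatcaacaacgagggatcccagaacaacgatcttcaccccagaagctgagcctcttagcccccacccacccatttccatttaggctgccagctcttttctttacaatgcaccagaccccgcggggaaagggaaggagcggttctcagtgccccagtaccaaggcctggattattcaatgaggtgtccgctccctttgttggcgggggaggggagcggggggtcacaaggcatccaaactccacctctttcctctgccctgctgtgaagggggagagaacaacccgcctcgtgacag
Apob promoter, chr12:7977427-7977726, plus strand: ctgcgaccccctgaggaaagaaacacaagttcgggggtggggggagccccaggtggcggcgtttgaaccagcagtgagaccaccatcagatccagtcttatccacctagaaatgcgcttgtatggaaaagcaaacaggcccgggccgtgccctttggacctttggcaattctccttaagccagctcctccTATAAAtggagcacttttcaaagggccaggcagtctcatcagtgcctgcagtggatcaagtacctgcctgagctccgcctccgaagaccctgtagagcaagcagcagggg
Apoa5 promoter, chr9:46268383-46268682, plus strand: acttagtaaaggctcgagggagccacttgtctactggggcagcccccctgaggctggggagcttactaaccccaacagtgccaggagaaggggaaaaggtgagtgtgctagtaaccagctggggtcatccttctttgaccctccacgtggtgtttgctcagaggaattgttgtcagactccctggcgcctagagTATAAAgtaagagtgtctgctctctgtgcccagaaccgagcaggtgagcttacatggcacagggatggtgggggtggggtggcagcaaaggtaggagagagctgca
Apob exon 26, chr12:8008039-8008078, plus strand: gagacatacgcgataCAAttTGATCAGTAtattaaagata

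RefSeq promoters were matched for 8 of the 10 genes, all but Apoc1 and Apoc3. TATAAA, searched on both strands, was found in 3 of these 8, those of Apoa2, Apoa5 and Apob, and in 13.6% of all 32851 promoters of the same length. The HNF4-type motif CAAAGTCCA and the direct-repeat part AGGTCAAAG were found in 0 of the 8, and in 0.475% and 0.426% of all promoters. With motifs this rare, 0 of 8 does not set the members apart. The Mttp stretch, which held none of the 3 motifs, lies 12041 bases from the start of the GENCODE M21 transcript used here for Mttp, whereas the other 7 lie within 148 bases of theirs. These are matches of letters, and degenerate forms were not searched. Both in OTD and in Control pools the counts do not separate edited from unedited Apob RNA. Apobec1, named outside the rule for named genes after its value was seen, had levels of 18.1 in the OTD pool and 12.8 in the Control pool, a ratio of 1.41 (95% counting interval 1.16 to 1.72). The gene of its RNA-binding partner, A1cf, named in the same way, had levels of 283 in the OTD pool and 291 in the Control pool.

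The 10 genes took 4.70% of all OTD reads and 5.17% of all Control reads, and their summed level was 46083 in the OTD pool against 52657 in the Control pool. The ratio of sums was 0.875 (95% counting interval 0.872 to 0.878). Each interval of a ratio is an exact Clopper-Pearson one, computed from how a gene's reads divide over the libraries. Intervals of levels, also per kilobase, are Poisson ones from the reads of a single library. Both kinds cover counting error only and leave out how mice, pools or preparations differ. In bulk liver RNA, fewer hepatocytes and less RNA per hepatocyte cannot be told apart. Of the 10 genes, 9 had a ratio below 1 and 1 above it, but Apoa2 also turned above 1 when libraries were scaled to equal totals, and Apoa1, Apoa2 and Apoc3 did after removal of a trend with level described further on. Over the 7602 measured genes (mean level of the pools of at least 10), 51.6% had a ratio below 1. A level at least 20% lower, or at least 25% higher (the same fold), in the OTD pool was taken as a sizeable difference. It was reached by 0 of the 10 genes in either direction, whereas 5.55% of measured genes passed the lower bound and 7.72% the upper one. Apoe, 18.1% lower, lay nearest to it.

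**Figure D1:**
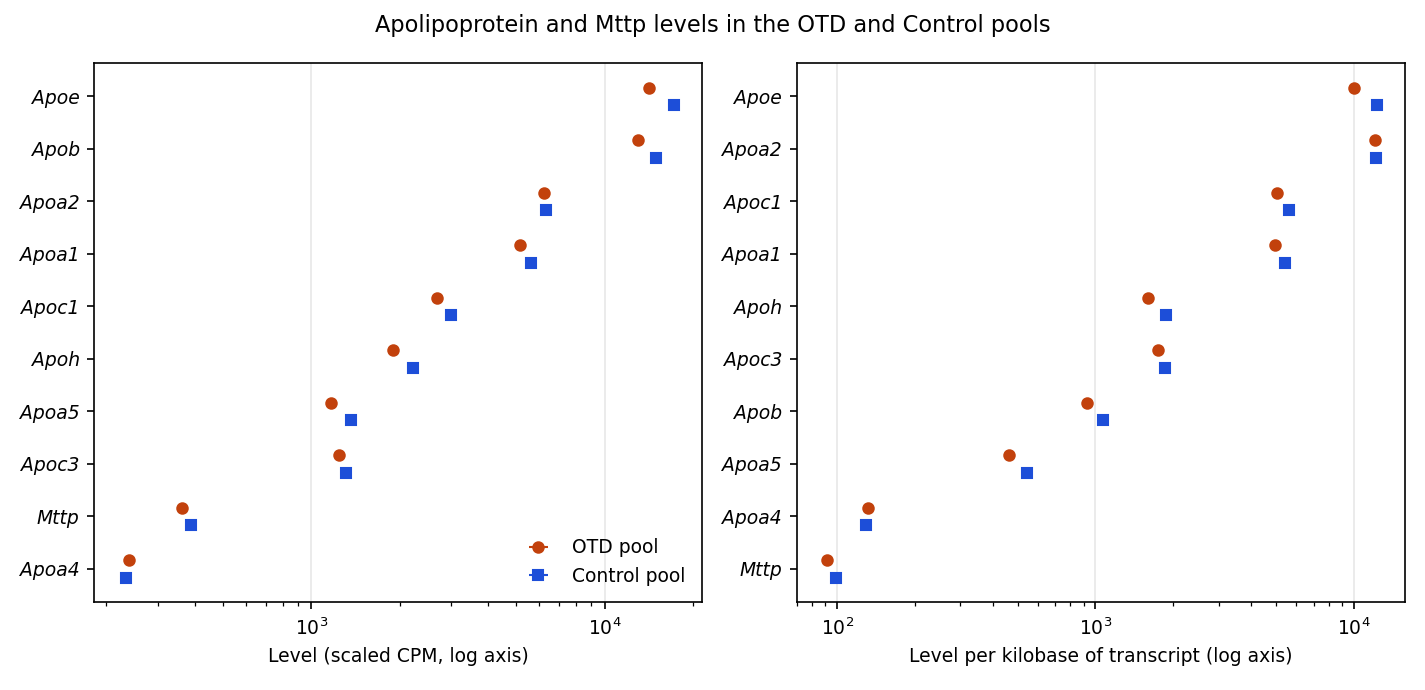
Levels of the 10 genes in the OTD pool (circles) and the Control pool (squares), as scaled CPM on the left and per kilobase of transcript on the right, both on log axes, with 95% Poisson counting intervals that are mostly smaller than the symbols. The OTD symbol lies left of the Control symbol for 9 of 10 genes, and Apoa4 is the exception.

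Apob, the structural protein of VLDL, had a level of 12967 in the OTD pool and 14931 in the Control pool. That is a ratio of 0.868 (0.863 to 0.874) from 194125 and 198746 reads. Mttp, whose product lipidates apolipoprotein B, had 363 in the OTD pool and 390.4 in the Control pool, a ratio of 0.929 (0.894 to 0.965). Both genes of the assembly step were therefore lower in the OTD pool as deposited, Apob by 13.2% and Mttp by 7.10%. Once a trend with level, described further on, was removed, the log2 ratio of Apob was −0.033 instead of −0.20. That of Mttp was −0.058 instead of −0.11. P4hb, which encodes the protein disulfide isomerase subunit of the transfer complex and was named outside the rule, had a ratio of 1.00 (0.978 to 1.02) at levels of 1112 in both pools.

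Apoe, the remnant ligand, had the highest level of the 10, not corrected for length, with 14149.6 in the OTD pool and 17279.9 in the Control pool. Its ratio of 0.819 (0.814 to 0.824) was the lowest of the 10, and 7.35% of measured genes had a lower one. Once a trend with level, described further on, was removed, its log2 ratio was −0.11 instead of −0.29, and Apoa5 and Apoh, both at −0.13, lay below it. Apoe is also expressed by macrophages. The summed level of 10 Kupffer cell markers was 403 in the OTD pool and 438 in the Control pool. Their levels ranged up to 122 in the OTD pool and 132 in the Control pool (Clec4f). All 8 measured ones had a ratio below 1, as had 51.6% of all measured genes, but only 4 had a counting interval below 1. Below the mean level of 10, Marco had a ratio of 1.18 and Timd4 one of 0.855. The part of Kupffer cells in the Apoe value was not tested. Apob and Apoe together made up 58.8% of the members' summed level in the OTD pool and 61.2% in the Control pool. Without them the ratio of sums was 0.928 (0.923 to 0.933).

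Apoa1, the main HDL protein and activator of the cholesterol-esterifying enzyme LCAT, had a level of 5145 in the OTD pool and 5599 in the Control pool. Its ratio was 0.919 (0.910 to 0.928). Apoa2, the other major HDL protein, had 6239 in the OTD pool and 6317 in the Control pool, a ratio of 0.988 (0.979 to 0.997). The 2 HDL proteins therefore differed in ratio by more than counting error, with Apoa2 near equality. Reads of Apoa1 per read of Apoa2, a quantity that no scaling between libraries can alter, were 0.825 in the OTD pool and 0.886 in the Control pool. The corresponding figures for Apoe were 2.27 in the OTD pool and 2.74 in the Control pool, and for Apob 2.08 in the OTD pool and 2.36 in the Control pool.

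Apoc1, a small exchangeable protein that slows uptake of remnants, had a level of 2678 in the OTD pool and 2999.85 in the Control pool. Its ratio was 0.893 (0.880 to 0.905). Apoc3, which inhibits lipoprotein lipase and delays clearance of triglyceride, had 1242 in the OTD pool and 1317 in the Control pool, a ratio of 0.943 (0.924 to 0.963). Apoa5, which favours lipase action and lowers plasma triglyceride, had 1168 in the OTD pool and 1362 in the Control pool, a ratio of 0.858 (0.840 to 0.876). The genes of these opposing lipase factors were both lower in the OTD pool as deposited. Apoa5 had the lower ratio, and the counting intervals did not overlap. Apoc3 reads made up 2.69% of the members' reads in the OTD pool and 2.50% in the Control pool, while Apoa5 reads made up 2.54% in the OTD pool and 2.59% in the Control pool.

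Apoa4, which in mice is made by intestine and by liver, had a level of 239 in the OTD pool and 234 in the Control pool. Its ratio of 1.02 (0.971 to 1.07) was the one value above 1 and its counting interval held 1, so a difference was not detectable at this depth of 3577 OTD and 3120 Control reads. The enterocyte gene Fabp2, which liver can also express, stood at 43.3 in the OTD pool and 45.9 in the Control pool, and Vil1 stood at 1.54 in the OTD pool and 0.601 in the Control pool. Apoh, beta-2-glycoprotein I, a plasma protein that binds anionic phospholipid, had 1893 in the OTD pool and 2227 in the Control pool. Its ratio of 0.850 (0.836 to 0.864) was the second lowest of the 10.

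**Figure D2:**
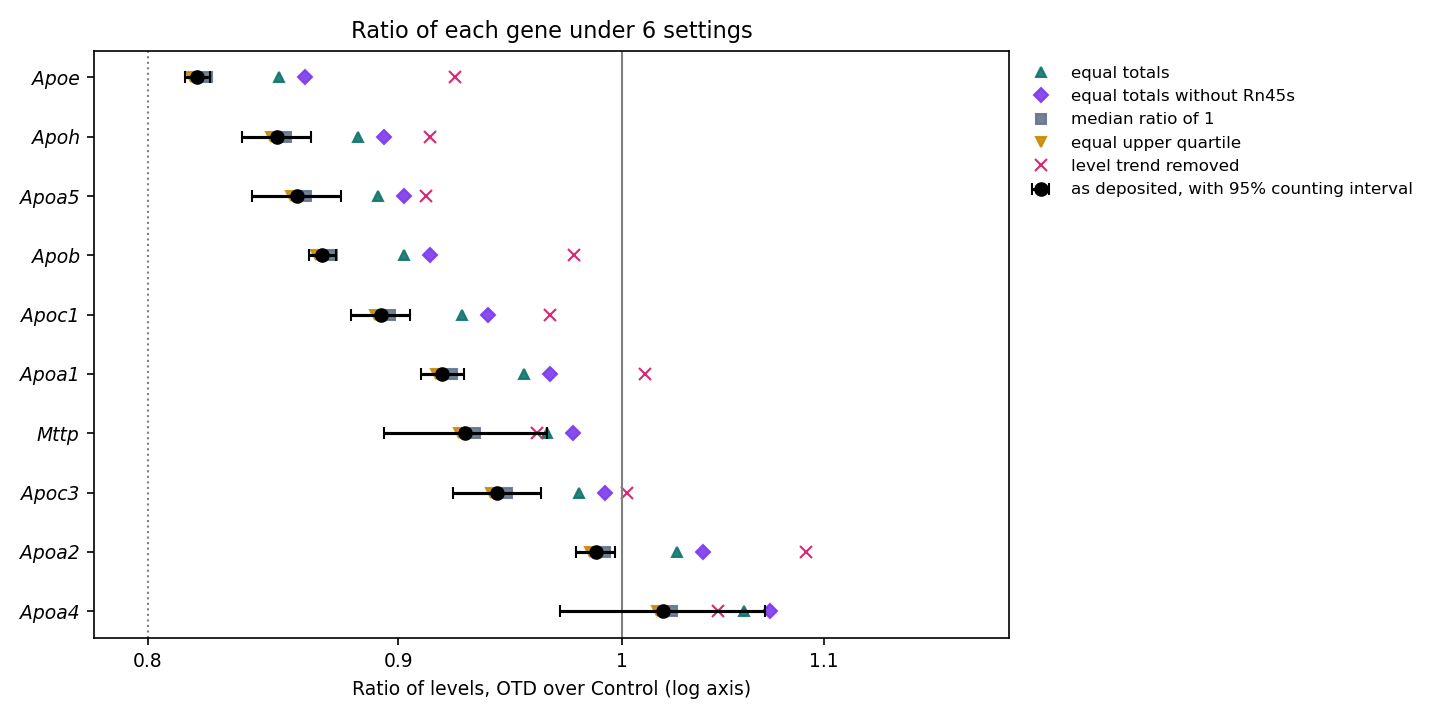
Ratio of levels, OTD over Control, for each of the 10 genes on a log axis, with the 95% counting interval around the deposited value (black) and the same ratio after 4 other scalings and after removal of the trend with level (coloured symbols). The solid line marks 1 and the dotted line a level 20% lower, which no gene reaches, and Apoa1, Apoa2, Apoa4 and Apoc3 lie above 1 after trend removal.

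Counting intervals lay below 1 for 9 of the 10 genes and above 1 for 0, against 19.6% and 18.6% of measured genes. Intervals narrow with depth, so abundant genes make a closer background. This comparison was added after the values were seen. Of the 113 genes with a mean level of at least 1000, 77% had a ratio below 1, 82 had an interval below 1 and 11.5% were at least 20% lower in OTD. The 8 members above that level were Apoa1, Apoa2, Apoa5, Apob, Apoc1, Apoc3, Apoe and Apoh, and all 8 had a ratio below 1, with 0 at least 20% lower. Their median log2 ratio (pseudocount 1) was −0.18, beside −0.12 for the 113 genes. The median over all 10 members was −0.14, beside −0.0063 for all measured genes. Of the 6 hepatocyte markers, 4 had a ratio below 1 and 2 above it. Albumin (Alb) had a ratio of 0.853 (0.851 to 0.856), Ttr 0.961 (0.9503 to 0.972), Tat 1.07 (1.05 to 1.09) and Cps1 1.0996 (1.09 to 1.11). The smoothed trend over all measured genes stood at −0.17 at the level of Apoe and at −0.048 at that of Mttp. After that trend was removed, 6 of the 10 genes had a ratio below 1 and the median log2 ratio was −0.041. Of the 113 abundant genes, 58 then had a log2 ratio below 0, with a median of −0.0041. The median over all measured genes was then −0.0021.

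**Figure D3:**
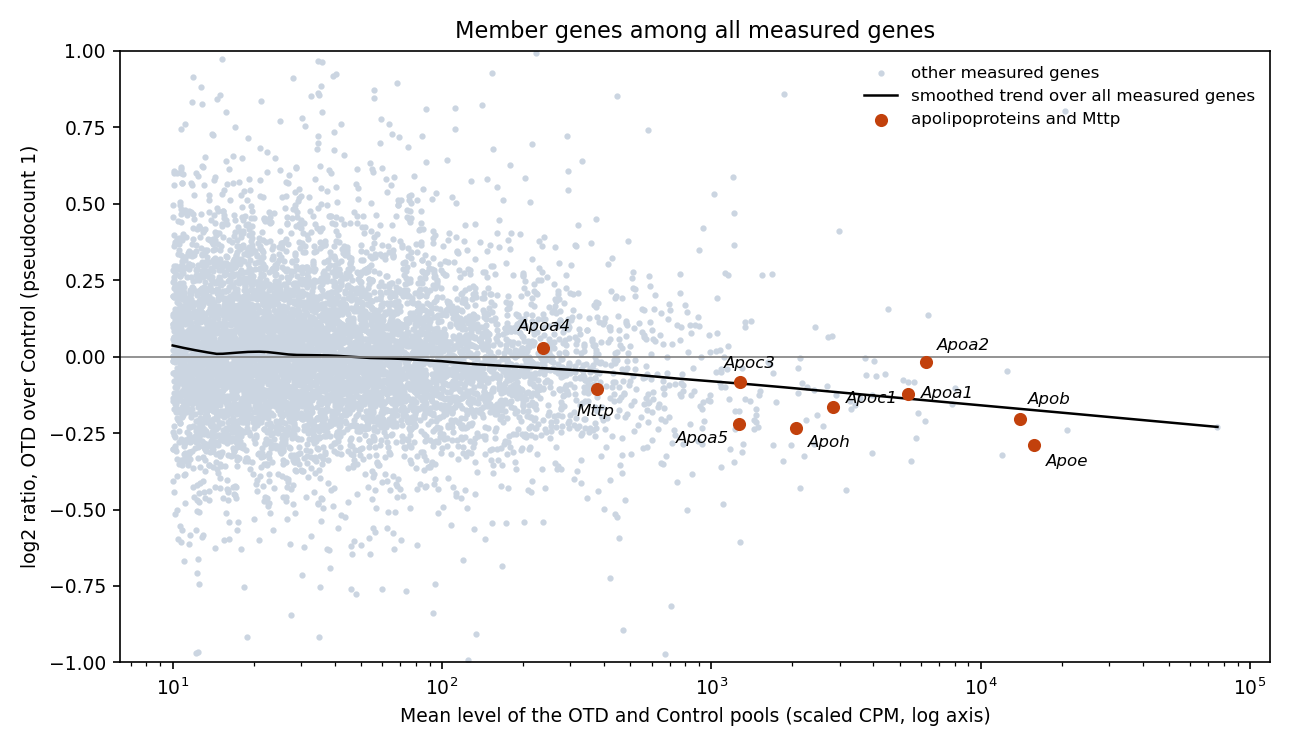
log2 ratio of OTD over Control against the mean level on a log axis for 7602 measured genes (grey), with the 10 member genes in orange and a smoothed trend over all genes as a line, and with 32 genes outside the vertical range. The trend slopes below 0 at high levels, where most of the members lie, Apoe, Apoh and Apoa5 stand below it and Apoa2 and Apoa4 above it.

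Levels of different genes are comparable only per length, so each level was divided by the length of the longest protein-coding transcript in GENCODE M21. Per kilobase of transcript, Apoa2 had 12044 in the OTD pool and 12194 in the Control pool, and Apoe had 10049.5 in the OTD pool and 12273 in the Control pool. In the OTD pool the counting intervals placed Apoa2 above Apoe, and in the Control pool they overlapped. Apoa2 ranked 2 and Apoe 3 among 15206 genes with a length in the OTD pool, while Apoa2 ranked 3 and Apoe 2 in the Control pool. Apoc1 (5033 in OTD, 5639 in Control) and Apoa1 (4971 in OTD, 5409 in Control) followed, and their intervals overlapped in the OTD pool. Apoc3 had 1751 per kilobase in the OTD pool and 1857 in the Control pool. Apoh had 1591 in the OTD pool and 1872 in the Control pool. In the OTD pool Apoc3 stood above Apoh and their counting intervals did not overlap. In the Control pool Apoh had the higher value and the intervals overlapped. Apob, by far the longest transcript at 13934 bases, came next with 931 per kilobase in the OTD pool and 1072 in the Control pool. Apoa5 (465 in OTD, 541 in Control), Apoa4 (132 in OTD, 129 in Control) and Mttp (91.5 in OTD, 98.5 in Control) closed the order. With coding length in its place, Apoa5 stood above Apob, Apoa2 above Apoe and Apoc3 above Apoh in both pools.

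Positions of the members are given here on GRCm38, and some of them lie in gene clusters. On chromosome 9, Apoa1 (46228580 to 46230466), Apoc3 (46232933 to 46235636, minus strand), Apoa4 (46240696 to 46243459) and Apoa5 (46268633 to 46271919) lie side by side. On chromosome 7, Apoe (19696109 to 19699188) and Apoc1 (19689481 to 19692660) share the minus strand with Apoc4 and Apoc2. Apob lies on chromosome 12 at 7977648 to 8016835, Mttp on chromosome 3 at 138089854 to 138144968, Apoa2 on chromosome 1 at 171225054 to 171226379 and Apoh on chromosome 11 at 108343354 to 108414396, and all are protein-coding. None of the members' stretches of 50 bases occurred in transcripts of another gene. Genes on the opposite strand overlap Apoa4, Apoa5, Apoh and Mttp, the gene model Gm11656 overlaps Apoh on the same strand, and the sources used here do not state whether counting used strand.

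The chromosome 9 cluster summed to 7794 in the OTD pool and 8512 in the Control pool, a ratio of 0.916 (0.908 to 0.923). The chromosome 7 cluster summed to 17564 in the OTD pool and 21065 in the Control pool, a ratio of 0.834 (0.829 to 0.838). Apoe made up most of that sum, at 14149.6 in the OTD pool and 17279.9 in the Control pool. The chromosome 7 ratio is therefore mainly that of Apoe. Along chromosome 7 the ratios were 0.819 for Apoe, 0.893 for Apoc1, 0.923 for Apoc4 (0.896 to 0.951) and 1.00 for Apoc2 (0.944 to 1.06), in the order of the genes. Levels of these genes fell in the same order in both pools, so position and level cannot be told apart here. Apoc2, the activator of lipoprotein lipase, had a level of 154 in both pools, and Apoc4 had 582 in the OTD pool and 631 in the Control pool. A separate read-through gene of Apoc4 and Apoc2 held 44 reads in the OTD pool and 30 in the Control pool, and how reads were split among the 3 is not known. On chromosome 9 the ratios did not follow gene order, since Apoa4 (1.02) lies between Apoc3 (0.943) and Apoa5 (0.858). The flanking genes Sik3 (0.834, 0.770 to 0.904), Zpr1 (0.881, 0.781 to 0.994), Pafah1b2 (1.03, 0.902 to 1.18), Clptm1 (0.908, 0.847 to 0.975), Tomm40 (0.995, 0.863 to 1.15) and Pvrl2 (0.938, 0.838 to 1.05) had ratios of 0.834 to 1.03, with wider intervals than the members beside them. Bud13, Tagln and Relb had levels of 5.01, 3.41 and 1.67 in the OTD pool and 3.83, 3.76 and 1.28 in the Control pool, below the mean of 10.

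**Figure D4:**
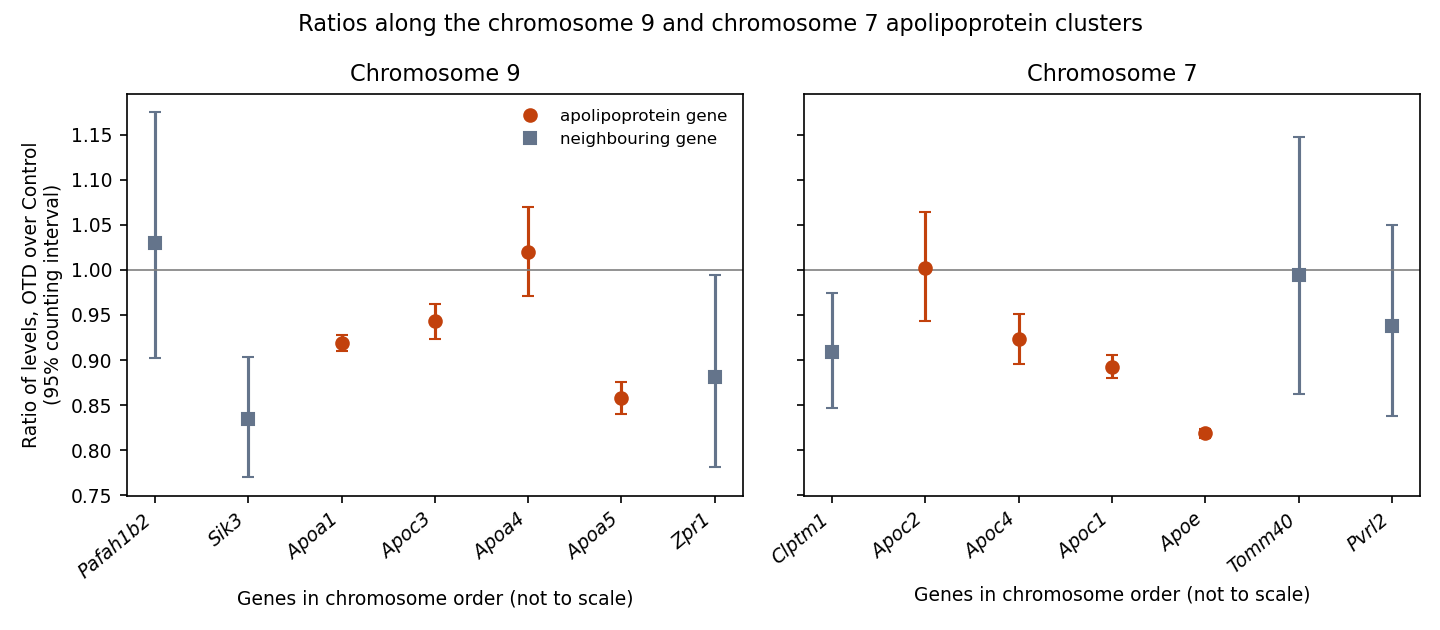
Ratio of levels, OTD over Control, with 95% counting intervals for apolipoprotein genes (circles) and neighbouring genes with a mean level of at least 10 (squares), in chromosome order and not to scale. On chromosome 7 the ratio is 1.00 at Apoc2 and 0.819 at Apoe, and on chromosome 9 Apoa4 stands above its neighbours Apoc3 and Apoa5.

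The remaining genes of lipoprotein metabolism were described in 5 lists, some of which share genes. As a background for the list counts, 5.55% of all measured genes were at least 20% lower and 7.72% at least 25% higher in OTD. Of 17 measured genes for other apolipoproteins and plasma lipoprotein proteins, 1 was at least 20% lower and 5 at least 25% higher in OTD, and their median log2 ratio was −0.036. The apolipoprotein L genes Apol9a (48.1 in OTD, 32.5 in Control), Apol7a (74.3 in OTD, 50.9 in Control) and Apol9b (94.9 in OTD, 66.3 in Control) had ratios of 1.48, 1.46 and 1.43. Apol9a and Apol9b are close copies, so the split of their reads is uncertain. Clu, which encodes the chaperone apolipoprotein J, had the highest level of the list, not corrected for length, with 1146 in the OTD pool and 1296 in the Control pool, a ratio of 0.885 (0.866 to 0.904).

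Among 33 measured genes of VLDL assembly and secretion, 4 were at least 20% lower and 4 at least 25% higher in OTD, with a median log2 ratio of 0.025. Lpin1, whose product makes diacylglycerol for triglyceride synthesis, had 362 in the OTD pool and 547 in the Control pool, a ratio of 0.662 (0.639 to 0.685). Gpam, which encodes the mitochondrial enzyme of the first acylation step, had 244 in the OTD pool and 162 in the Control pool, a ratio of 1.502 (1.42 to 1.59). Ces1g, a carboxylesterase gene of a family of similar copies, had 297 in the OTD pool and 149 in the Control pool, a ratio of 1.997 (1.89 to 2.11). Acsl1, which activates fatty acids, had the highest level of the list, not corrected for length, with 1159 in the OTD pool and 1438 in the Control pool, a ratio of 0.806 (0.789 to 0.822).

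Among 19 measured genes for receptors and clearance, 4 were at least 20% lower and 4 at least 25% higher, with a median log2 ratio of −0.10. Lrp1, the remnant receptor that binds apolipoprotein E, had 1626 in the OTD pool and 2059 in the Control pool, a ratio of 0.790 (0.776 to 0.804).

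Among 14 measured genes for HDL lipid loading and sterol export, 3 were at least 20% lower and 1 at least 25% higher, with a median log2 ratio of −0.089. Scarb1, the HDL receptor gene, had 205 in the OTD pool and 276 in the Control pool, a ratio of 0.742 (0.707 to 0.779). Soat2, the cholesterol esterification gene, had a ratio of 0.784 at 25.4 in the OTD pool and 32.4 in the Control pool. Pltp, the phospholipid transfer protein gene, had a ratio of 1.30 at 30.5 in the OTD pool and 23.4 in the Control pool. Abcb11, the bile salt export pump gene with the highest level of the list, not corrected for length, had a ratio of 0.937 at 762 in the OTD pool and 813 in the Control pool.

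Among 28 measured regulator genes, 4 were at least 20% lower and 4 at least 25% higher, with a median log2 ratio of −0.016. Hnf4a, a nuclear receptor known to bind promoters of Apob, Apoc3 and Mttp, had 669.9 in the OTD pool and 948 in the Control pool, a ratio of 0.707 (0.688 to 0.725). Foxa3 had a ratio of 0.577 at 35.1 in the OTD pool and 60.9 in the Control pool, and the clock repressor gene Nr1d1, 0.388 at 18.5 in the OTD pool and 47.6 in the Control pool. Srebf1, which drives lipogenic genes, had a ratio of 1.62 at 267 in the OTD pool and 164 in the Control pool. The ratios of other regulators of the members were 0.842 for Ppara, 0.828 for Foxo1, 0.814 for Creb3l3, 1.03 for the bile acid receptor gene Nr1h4 and 0.967 for Ppargc1a. The part of these regulators in the members' values was not tested.

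**Figure D5:**
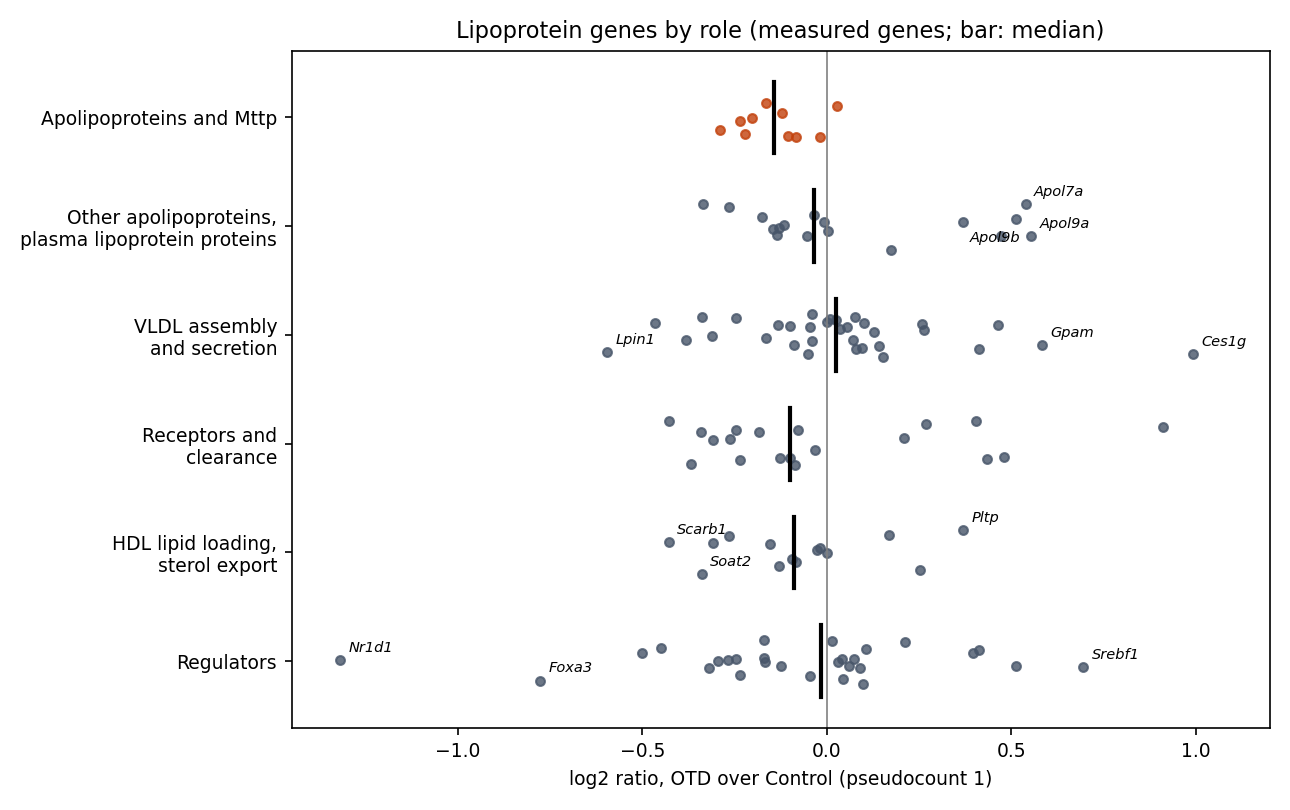
log2 ratio of OTD over Control (pseudocount 1) for the 10 member genes (orange) and for the measured genes of 5 lists of lipoprotein metabolism (grey), with a bar at each median. The members span −0.29 to 0.028, while single genes of the other lists reach −1.32 (Nr1d1) and 0.99 (Ces1g).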

How the data were processed

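Liver RNA was pooled by group, and 200 ng per pool was depleted of ribosomal RNA and made into directional libraries, per the labels' protocols. The authors deposited 1 normalized signal per gene symbol and library, in columns whose names contain Wild and either Ctrl or OTD. The mm10 build and the tools edgeR, RSEM, Bowtie2 and Trimmomatic 0.38 are listed without roles, per the submitters' processing notes. Neither the strand setting nor the filters of the authors are stated in the labels or file headers. Of the values in both columns, 100% were whole multiples of the smallest value above 0 (relative tolerance 1e-06), so whole reads were recovered. A count of 3 reads equals a level of 0.200 in OTD and 0.225 in Control. With 1 library per group no count test could be fitted to these reads, so 0 genes were called by a test and none has a p-value.

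From the levels, plain ratios with 95% exact Clopper-Pearson intervals and log2 ratios with a pseudocount of 1 were computed, for genes with a mean level of at least 10 (7602 genes). Levels of the members, also per kilobase, were given 95% Poisson intervals. Members, lists and rules were chosen with earlier results of these data known. Named genes were the members, cluster genes and flanks, 7 regulators, and per list the 3 with the largest absolute log2 ratio and the one with the highest level. Some genes and a motif that these rules would name are not reported here. Lengths came from GENCODE M21, which matched 99.1% of symbols, with older symbols matched through the reference tables. The interval of a ratio and the fold rule were tested on simulated Poisson reads holding 1.5-fold changes. No variation between mice or pools was simulated, so that check covers counting error only. Computation used scipy 1.17.1, numpy 2.4.6, statsmodels 0.14.6, pandas 2.3.3 and Python 3.11.15, and plots matplotlib 3.10.9. Alternatives were other pseudocounts, scalings, filters and folds, and a lowess trend (span 0.3).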

Additional observations from a re-analysis of the deposited data

How the results depend on the processing

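The median log2 ratio of the 10 genes was −0.087 at equal totals, −0.070 at equal totals without Rn45s and −0.041 after trend removal, and it stayed below 0 under the 7 alternatives run. The median over all measured genes was 0.047 at equal totals, 0.065 without Rn45s and −0.0021 after trend removal. A scaling shifts members and other genes alike. Their ratio of summed levels was 0.909 at equal totals, 0.921 without Rn45s, 0.879 at a median ratio of 1 and, in an alternative chosen after seeing the data, 0.928 without Apob and Apoe. At equal totals, with or without Rn45s, 8 genes had a ratio below 1, and Apoa2 and Apoa4 lay above it. Of the 113 genes with a mean level of at least 1000, 73 had a log2 ratio below 0 at equal totals and 70 without Rn45s. The count of members at least 20% lower or 25% higher was 0 under each alternative run.

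Over all measured genes, 422 were at least 20% lower and 587 at least 25% higher in OTD. The lower and higher counts became 206 and 292 with a pseudocount of 10, 77 and 133 at 1.5-fold, 19 and 17 at 2-fold, 2262 and 3042 without a filter, 86 and 69 for a mean level from 100 up, and 13 and 8 from 1000 up, the last added after seeing the data. Equal totals gave 261 lower and 839 higher, and without Rn45s 233 lower and 926 higher. The list medians for other apolipoproteins and for regulators had either sign, between −0.040 and 0.037 and between −0.021 and 0.055. No paired analysis was possible because each group was 1 pooled library. At the deposited scaling, counting error left only the ratio of Apoa4, among the members, on neither side of 1. Counting intervals were not computed anew for the other scalings. Counting error also left some neighbours in the order per kilobase unresolved, and the variation between mice was not measured.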
